A study of Rattus norvegicus with 10 samples.

Results

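Diclofenac, a non-steroidal anti-inflammatory drug (NSAID) of the arylacetic acid class, was compared with no named treatment in the stomach lining of the rat, gene by gene. The comparison used 4 of the series' 10 RNA-sequencing libraries, chosen by their sample titles: 2 from rats given diclofenac and 2 controls. All 4 came from gastric mucosa of Sprague Dawley rats, and epithelial cells are named as their cell type, although the protocol describes tissue. The diclofenac animals received 75 mg/kg by mouth and mucosa was taken 4 h later. The control labels name no treatment, vehicle or time, so effects of dosing itself cannot be told apart from those of the drug. The other 6 libraries came from rats given indomethacin (48 mg/kg), honokiol (40 mg/kg) 30 min before indomethacin (48 mg/kg), or aspirin (400 mg/kg). They served to estimate the spread between replicates. The time in the labels is 4 h for indomethacin and aspirin and 0.5 h for the honokiol group. Whether replicates were separate animals is not stated. Y chromosome counts, given below, show different animals for the controls but do not settle it for diclofenac. A p-value here sets the difference between groups against the spread between libraries within groups, pooled over all 10 libraries. That spread may be in part technical. Age and sex are not given in the labels.

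NSAIDs block the cyclooxygenases, which turn arachidonic acid into prostaglandins. In the stomach, prostaglandins maintain mucus, bicarbonate secretion and blood flow, and loss of them together with direct effects of the drug on surface cells and their mitochondria is the textbook route to gastric injury. Injured mucosa typically shows induction of early transcription factors, chemokines that recruit neutrophils, and proteases that remodel the wound.

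The deposited tables identify genes by identifier and position only. A gene symbol was assigned where the gene's span and its distances to neighbouring genes matched those of a RefSeq gene on the same chromosome, so each name below is an inference from gene layout and not a match of identifiers. This gave symbols to 4786 of 32623 genes. Strand was not used in the matching, and it fitted in 3930 of the 3934 pairs where it was known. Tandem copies on one strand, such as the CXC chemokines, are the case in which strand is a weak check. Genes without a symbol, among them the cyclooxygenase genes, are not analysed here by name.

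Levels are counts scaled to library size (CPM). Of 16346 genes tested, 778 were higher and 508 were lower after diclofenac, which is 4.76% and 3.11%, or 7.87% in either direction (edgeR quasi-likelihood test, adjusted p under 0.05, the threshold for a call throughout). Among the 3940 tested genes with a symbol, 326 were called (8.27%), 216 higher (5.48%) and 110 lower (2.79%), so the named genes were called about as often as the rest. Rises were larger than falls: 286 of the higher genes but 39 of the lower genes changed at least 4-fold, and the median log2 fold changes were 1.62 and -1.07. In every called gene both diclofenac libraries lay on 1 side of both controls, which was also true of 27% (above) and 28.3% (below) of all genes tested. The calls rest heavily on single libraries. Without control replicate 1 there were 241 higher and 78 lower genes, without diclofenac replicate 1 there were 485 and 81, and without diclofenac replicate 2 there were 351 and 73. None of the 326 called genes with a symbol changed direction in any of these fits.

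The libraries held 32198888 to 44977459 counts. Control replicate 1 had 3582 counts on the Y chromosome against 1 in control replicate 2 and 47 and 0 after diclofenac. The controls were thus not the same animal, and Y reads, a mark of male sex, were partly confounded with treatment. With a term for Y reads in the fit 280 genes were higher and 103 lower. Features at the position of the mitochondrial ribosomal RNA took 32.3% and 32.4% of the control counts but 19.2% and 18.7% after diclofenac. A set of 3 loci took 12.1% of diclofenac replicate 1 and 0.652% of diclofenac replicate 2. Leaving those loci out gave 828 higher and 449 lower genes.

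**Figure D1:**
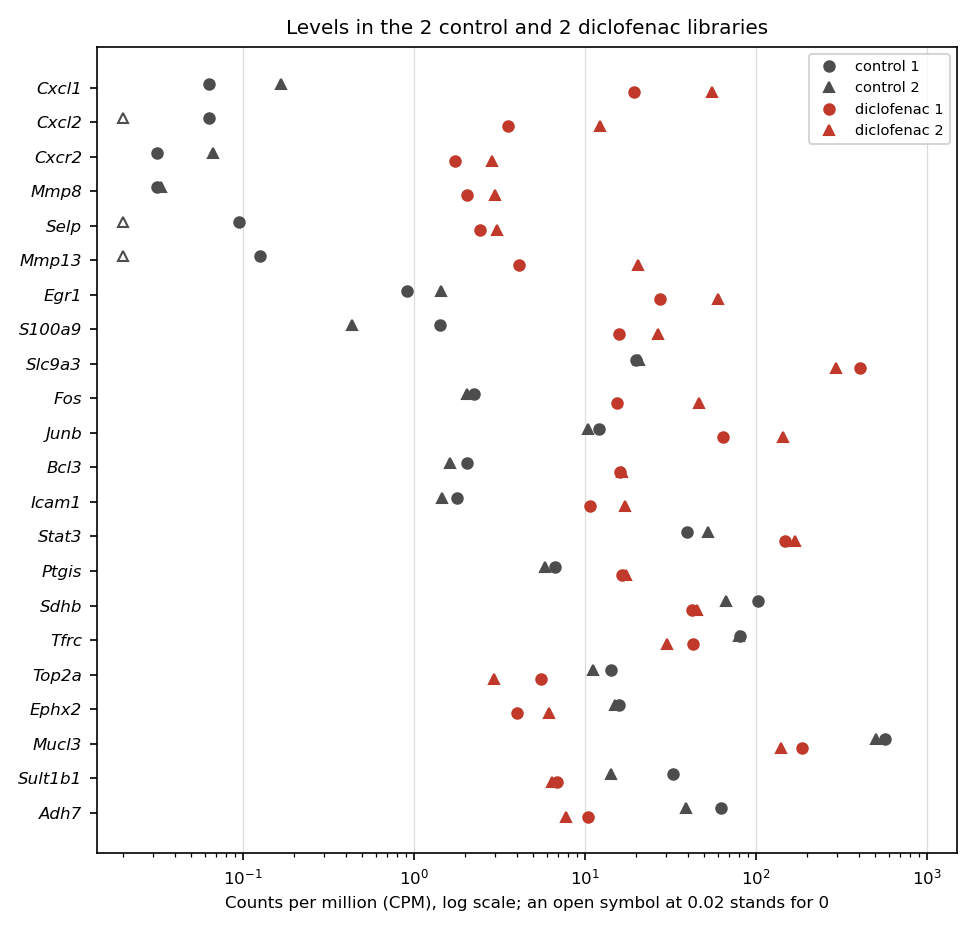
CPM (log scale) of 22 genes in each of the 2 control libraries (grey) and 2 diclofenac libraries (red), with circles for replicate 1 and triangles for replicate 2. Open symbols at 0.02 stand for 0. In each gene shown the red symbols lie on 1 side of the grey ones. Cxcl1 stood at 0.0632 and 0.167 CPM in controls and at 19.5 and 55.4 CPM after diclofenac, while Adh7 stood at 62.8 and 39.1 CPM in controls and at 10.4 and 7.74 CPM after diclofenac.

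The mucosa carried the gene products of acid- and pepsinogen-secreting gland cells. Pgc, which encodes a pepsinogen, the zymogen of chief cells, had 4005945 and 5589242 counts in the controls and 7906156 and 10466984 counts after diclofenac. These are raw counts, not scaled to library size. The 3 tested chief cell markers, Pgc among them, summed to 126700 and 186700 CPM in controls. After diclofenac the sums were 179400 and 249200 CPM, so the scaled levels overlapped. Atp4a, the catalytic subunit of the parietal cell proton pump, was at 1123 and 1893 CPM in controls and at 1658 and 1297 CPM after diclofenac. Neither Pgc nor Atp4a passed the test (edgeR adjusted p = 0.491 and 0.969). Dcn, which encodes decorin of fibroblasts, reached 1461 and 1778 CPM in controls, so the tissue was not epithelium alone. Of 22 listed squamous forestomach markers 3 had a name and 1, Krt10, was tested, at 0.667 to 1.41 CPM, so the list says little of that epithelium.

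For chemokine, early response and protease genes, the sequence before the transcription start is shown first, for members that rose strongly. The promoters are from RefSeq (build GRCr8), 5′ to 3′ on the gene's strand, and give the 250 bases before the start. They were chosen after motif matches were seen, and capitals mark the matched letters. Cxcl1 (chr14:17479322-17479571, minus strand), Cxcl2 (chr14:17467256-17467505, minus strand) and Bcl3 (chr1:88613556-88613805, minus strand) hold the NF-kB motif.
Cxcl1: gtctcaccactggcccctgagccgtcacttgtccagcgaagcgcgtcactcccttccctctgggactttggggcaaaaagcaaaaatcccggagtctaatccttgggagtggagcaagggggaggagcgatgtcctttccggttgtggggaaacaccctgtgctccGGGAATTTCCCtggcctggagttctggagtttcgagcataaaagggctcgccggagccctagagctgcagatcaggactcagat
Cxcl2: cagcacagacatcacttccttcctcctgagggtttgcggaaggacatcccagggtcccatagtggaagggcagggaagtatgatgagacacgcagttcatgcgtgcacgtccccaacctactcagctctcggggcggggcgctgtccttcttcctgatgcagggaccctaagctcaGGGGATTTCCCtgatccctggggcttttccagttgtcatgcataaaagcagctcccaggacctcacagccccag
Bcl3: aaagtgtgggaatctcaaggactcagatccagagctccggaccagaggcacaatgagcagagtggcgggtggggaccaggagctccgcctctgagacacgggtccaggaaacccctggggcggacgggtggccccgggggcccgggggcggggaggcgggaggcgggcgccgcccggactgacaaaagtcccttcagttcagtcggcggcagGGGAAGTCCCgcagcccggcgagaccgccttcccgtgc
Zfp36 (chr1:92799109-92799358, minus strand) holds the CArG motif, the element bound by serum response factor.
Zfp36: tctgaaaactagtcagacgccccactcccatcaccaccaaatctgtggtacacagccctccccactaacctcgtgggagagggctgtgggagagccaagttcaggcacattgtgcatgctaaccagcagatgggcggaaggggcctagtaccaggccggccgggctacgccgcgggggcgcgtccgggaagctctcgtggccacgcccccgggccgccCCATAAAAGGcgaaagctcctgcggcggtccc
Mmp13 (chr8:12782579-12782828, plus strand) and Mmp10 (chr8:12974457-12974706, plus strand) hold the AP-1 motif TGANTCA, which Fos and Jun proteins bind.
Mmp13: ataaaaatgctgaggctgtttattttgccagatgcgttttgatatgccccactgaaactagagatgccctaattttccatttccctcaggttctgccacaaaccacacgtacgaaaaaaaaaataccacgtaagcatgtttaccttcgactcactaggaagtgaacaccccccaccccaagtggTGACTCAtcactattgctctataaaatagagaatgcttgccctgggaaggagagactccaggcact
Mmp10: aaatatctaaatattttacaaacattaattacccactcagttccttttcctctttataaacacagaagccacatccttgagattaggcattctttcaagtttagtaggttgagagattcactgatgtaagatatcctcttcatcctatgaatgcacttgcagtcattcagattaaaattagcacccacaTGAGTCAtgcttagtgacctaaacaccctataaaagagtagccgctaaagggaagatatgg
Both strands were searched, and in Cxcl1 and Cxcl2 the capitals cover 2 overlapping matches. Over 27457 rat promoters of this length, 3.52% held the NF-kB motif, 1.5% the CArG motif and 6.36% the AP-1 motif. Among the 3241 named genes tested, the shares were 4.01%, 1.05% and 4.17%. Of the 162 higher genes with a symbol and a promoter in the table, 13 (8.02%) held the NF-kB motif, 6 (3.7%) the CArG motif and 11 (6.79%) the AP-1 motif. Of the 100 lower genes, 4, 2 and 5 held them. These are matches of letters and no test was made of them.

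Chemokines that attract neutrophils had some of the largest rises. Cxcl1 (chromosome 14, 18743685 to 18745457 in the files, whose build the sources used here do not state), a ligand of CXCR2, had 2 and 5 counts in the controls and 860 and 2325 after diclofenac. This is a rise of 8.32 ± 1.54 (SE) in log2 units (edgeR adjusted p = 0.0319). Cxcl2, its neighbour and close relative, had 2 and 0 counts in controls and 157 and 513 after diclofenac, a ratio of counts of 240 (95% exact interval 66.1 to 1984, counting error only, edgeR adjusted p = 0.0266). For both, replicate 2 of diclofenac was above replicate 1, and the groups did not overlap. Reads that fit both of these related genes, if there were any, could not be told apart here. Among CC chemokines, 2 of 9 tested genes rose, against 4.76% of all genes tested. Ccl3, which attracts monocytes and neutrophils, had no counts in the controls and 13 and 35 after diclofenac, at least 11.5-fold higher (floor of 3 counts over the control group), and Ccl22 went from 0.0316 and 0.1 CPM to 0.34 and 1 CPM. Without control replicate 1 none of these 4 calls held (edgeR adjusted p up to 0.198). Without control replicate 2 and without diclofenac replicate 2 a single one held in each case, and 3 held without diclofenac replicate 1.

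Neutrophil genes and the endothelial molecules that neutrophils bind were higher as well. Of 12 listed neutrophil markers 4 were tested, and all 4 rose. Their summed level was 2.72 and 1.4 CPM in controls against 23.2 and 38.2 CPM after diclofenac. Cxcr2, the receptor of Cxcl1 and Cxcl2, had 1 and 2 counts in controls and 77 and 121 after diclofenac, a ratio of 47.2 (95% exact interval 15.9 to 231, edgeR adjusted p = 0.00287). Mmp8, the neutrophil collagenase, had 1 count in each control and 90 and 125 counts after diclofenac. S100a9, a calprotectin subunit, went from 1.42 and 0.434 CPM to 15.8 and 26.9 CPM. In bulk tissue more cells of a type and more RNA per cell cannot be told apart.

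All 3 tested adhesion genes of the vessel wall rose. Selp, which encodes P-selectin, had 3 and 0 counts in controls and 107 and 129 after diclofenac, a ratio of 56.3 (95% exact interval 19 to 275). Sele, which encodes E-selectin, had no counts in controls and 27 and 11 after diclofenac, at least 9.06-fold higher. Icam1, a ligand of leukocyte integrins, went from 1.8 and 1.47 CPM to 10.8 and 17.2 CPM (log2 fold change 3.09 ± 0.48, SE, edgeR adjusted p = 0.00801). Of the 6 adhesion and neutrophil genes named here, 2 stayed called without control replicate 1, 4 without control replicate 2, 4 without diclofenac replicate 1 and 5 without diclofenac replicate 2. S100a9 lost its call when any 1 of the 4 libraries was left out, with adjusted p from 0.0745 to 0.122. The summed level of 4 macrophage and monocyte markers was 39.3 and 16.8 CPM in controls and 22.9 and 32.9 CPM after diclofenac, so those groups overlapped.

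Cytokine receptors rose more evenly across libraries than the chemokines. Of 9 tested cytokine genes and receptors 5 rose and none fell. Tnfrsf1a, the main receptor of tumour necrosis factor, went from 7.52 and 6.35 CPM to 27.9 and 33.9 CPM (log2 fold change 2.15 ± 0.25, SE, edgeR adjusted p = 0.0013). Il4r, the interleukin 4 receptor chain, went from 10.4 and 8.68 CPM to 24.4 and 31.3 CPM. Both kept their calls without each library in turn. Il1r2, a decoy receptor that binds interleukin 1 without signalling, went from 0.41 and 0.134 CPM to 3.45 and 5.43 CPM. The signalling receptor Il1r1 rose by only 0.69 ± 0.19 on the log2 scale. Osm, which encodes oncostatin M of the interleukin 6 family, went from 0.316 and 0.0334 CPM to 3.02 and 4.81 CPM. Il1r1 and Osm lost their calls when any 1 of the 4 libraries was left out (adjusted p up to 0.183). Tnf itself was near its detection limit, at 0.126 and 0.167 CPM in controls and 0.113 and 0.405 CPM after diclofenac, and did not pass the test (edgeR adjusted p = 0.612).

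Early response transcription factors rose together. Of 13 tested members of the list, 10 rose and none fell, with a median log2 fold change of 1.99 against -0.01 over all genes tested. Egr1, a zinc finger factor induced within minutes of growth or stress signals, was at 0.916 and 1.44 CPM in controls and at 27.4 and 59.8 CPM after diclofenac (log2 fold change 5.21 ± 0.56, SE, edgeR adjusted p = 0.00221). Among AP-1 genes, Fos went from 2.24 and 2.04 CPM to 15.5 and 46.5 CPM. Junb went from 12.1 and 10.4 CPM to 64.2 and 145 CPM. Fosl1, Fosb and Maff rose by 3.91 ± 0.66, 3.13 ± 0.35 and 1.99 ± 0.34 on the log2 scale. For Fos and Junb, replicate 2 of diclofenac was the higher one, by more than 2-fold. Ier2 and Csrnp1, also early response genes, rose by 1.9 ± 0.45 and 1.38 ± 0.26.

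Feedback genes of the early response rose with it. Zfp36, whose product tristetraprolin destabilises cytokine messenger RNA, went from 8.37 and 8.15 CPM to 41.6 and 82.1 CPM (log2 fold change 2.9 ± 0.45, SE, edgeR adjusted p = 0.00728). Btg2, an antiproliferative cofactor of messenger RNA decay, went from 56.6 and 42.5 CPM to 98.4 and 220 CPM. Of the 10 early and feedback calls, 3 held without control replicate 1, namely Egr1, Fosl1 and Fosb. There were 7 without control replicate 2, all 10 without diclofenac replicate 1, and 7 without diclofenac replicate 2.

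Of 8 tested NF-kB and STAT3 genes 6 rose and 1 lay below 0, uncalled, with a median log2 fold change of 1.64. Bcl3, an atypical inhibitor protein that binds NF-kB p50 and p52 in the nucleus, went from 2.05 and 1.64 CPM to 16 and 16.5 CPM (log2 fold change 3.13 ± 0.32, SE, edgeR adjusted p = 0.00101). The subunit genes Relb and Rela rose by 2.15 ± 0.42 and 0.99 ± 0.2 on the log2 scale. Both lost their calls without diclofenac replicate 2, Relb also without control replicate 2 and Rela without control replicate 1 (adjusted p up to 0.0966). Stat3, the transcription factor downstream of interleukin 6 family receptors, went from 39.7 and 52.3 CPM to 147 and 169 CPM. Nfkbie, an inhibitor of NF-kB, and Zc3h12a, the ribonuclease regnase-1, rose by 1.82 ± 0.42 and 1.5 ± 0.35. The calls of Bcl3 and Stat3 held without each library in turn, whereas Nfkbie and Zc3h12a lost theirs without either control and without diclofenac replicate 2 (adjusted p up to 0.163).

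Proteases rose, among them 4 of 6 tested matrix metalloproteinases. Mmp13, a collagenase, had 4 and 0 counts in controls and 182 and 860 after diclofenac (log2 fold change 7.49 ± 1.39, SE, edgeR adjusted p = 0.0281). Mmp10, a stromelysin, went from 3.92 and 0.635 CPM to 36.3 and 103 CPM. Mmp9, the gelatinase of neutrophils and macrophages, had 2 and 3 counts in controls and 26 and 19 after diclofenac. Prss22, an epithelial serine protease, went from 0.347 and 0.0668 CPM to 4.67 and 15.3 CPM. None of these 4 calls held without control replicate 1 (adjusted p up to 0.232) or without control replicate 2 (up to 0.0937). Without each diclofenac library in turn Mmp13 and Prss22 kept theirs.

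**Figure D2:**
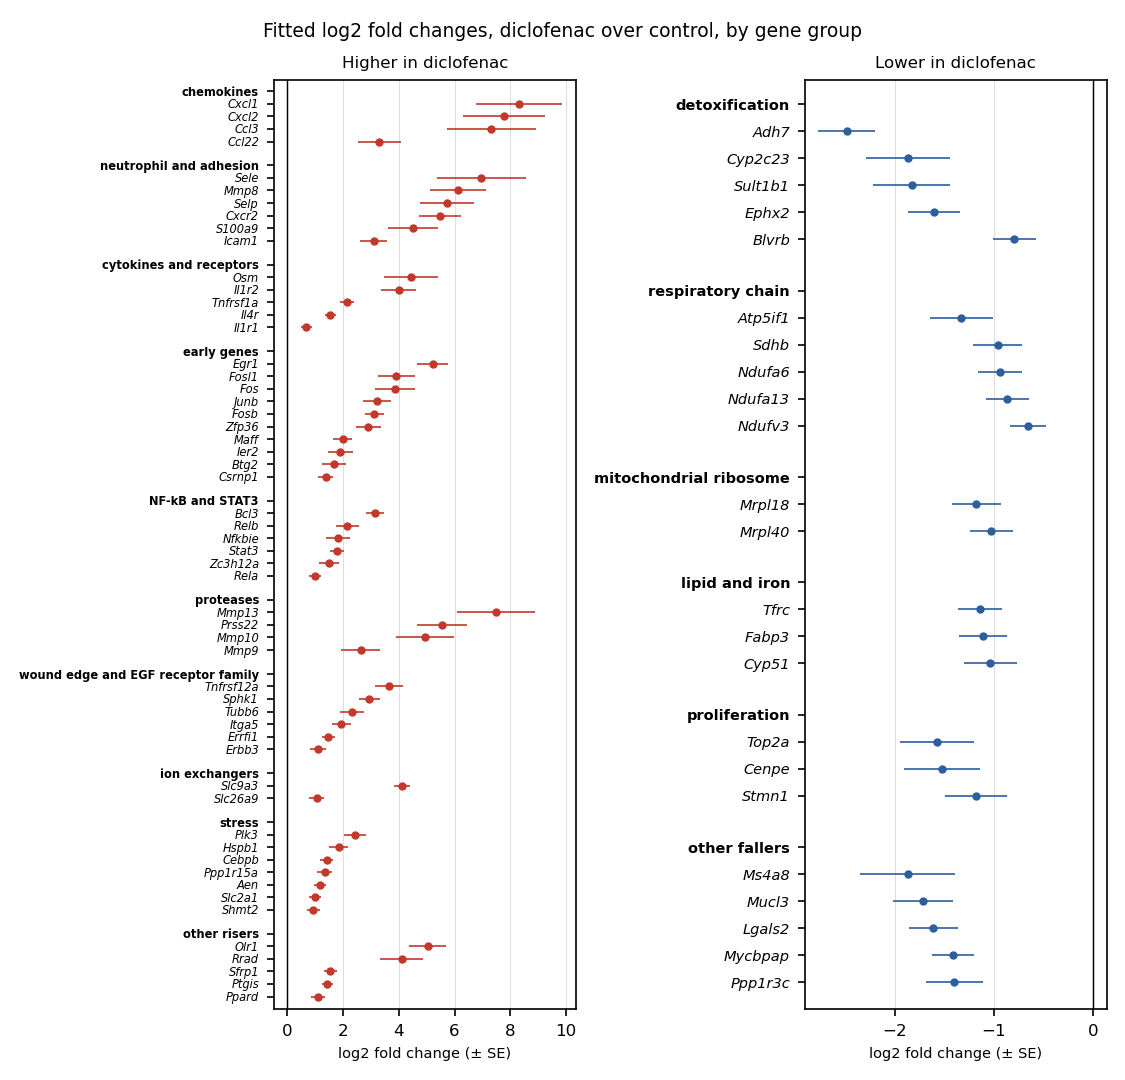
Fitted log2 fold changes of diclofenac over control with standard errors, for called genes grouped as in the text; the left panel holds the higher genes and the right panel the lower genes on its own scale. Chemokine, neutrophil and protease genes reach the largest values with the widest errors, and fitted values of genes with 3 or fewer control counts (Cxcl2, Ccl3, Sele, Selp, Mmp8, Cxcr2) depend on the prior count of the fit. Slc9a3 at 4.11 ± 0.29 and Adh7 at -2.49 ± 0.28 combine large changes with small errors.

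Slc9a3 had the smallest adjusted p among the named genes described here. It encodes NHE3, a sodium-proton exchanger of the apical membrane of epithelial cells (chromosome 1, 31734327 to 31777070 in the files). Its level was 20 and 20.7 CPM in the controls and 408 and 295 CPM after diclofenac (log2 fold change 4.11 ± 0.29, SE, edgeR adjusted p = 0.00018). The controls were nearly equal, and both diclofenac libraries lay far above them. Without each library in turn the log2 fold change was 3.88 to 4.32 and the call held. Slc26a9, an anion transporter of the gastric epithelium, went from 22.4 and 39 CPM to 70.1 and 56.9 CPM, and its call held only where control replicate 2 was left out. They were the 2 members that passed of 7 tested bicarbonate and water transport genes, against 4.76% higher over all genes tested. The mucin, trefoil and gastrokine genes of that list were not tested by name.

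Of 12 tested genes of wound edges 4 rose, and of 4 genes of the EGF receptor family 2 did. The higher share of all genes tested was 4.76%. Tnfrsf12a, the receptor of TWEAK, went from 2.31 and 1.07 CPM to 16.1 and 26.5 CPM (log2 fold change 3.65 ± 0.51, SE, edgeR adjusted p = 0.00559). Sphk1, a sphingosine kinase, went from 0.663 and 0.367 CPM to 3.83 and 4.19 CPM. Itga5, the fibronectin receptor subunit, and Tubb6, a beta-tubulin, rose by 1.93 ± 0.34 and 2.33 ± 0.44 on the log2 scale. Tubb6 lost its call without either diclofenac library (adjusted p = 0.0532 and 0.0511). Errfi1, a feedback inhibitor of the EGF receptor, went from 17.4 and 21 CPM to 46.2 and 59.9 CPM. Erbb3, a member of the EGF receptor family, rose by 1.09 ± 0.29, and its call was lost without 3 of the 4 libraries (adjusted p up to 0.156). The EGF receptor ligand Areg stood at 7.39 and 1.8 CPM in controls and 2.97 and 7.21 CPM after diclofenac. Keratins did not follow: none of 5 tested was called, and Krt8 was at 1196 and 578 CPM in controls and 470 and 710 CPM after diclofenac.

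The stress response genes that were called all rose. Over all genes tested, 4.76% were higher. In the integrated stress response list 3 of 12 tested genes rose: Cebpb, a transcription factor of acute inflammation, by 1.41 ± 0.23, Ppp1r15a, the phosphatase subunit GADD34, by 1.34 ± 0.27, and Shmt2, a mitochondrial serine enzyme, by 0.93 ± 0.23 on the log2 scale. None of 6 tested endoplasmic reticulum chaperones and unfolded protein response genes passed. Hspb1, a small heat shock protein, went from 2.84 and 5.74 CPM to 19.4 and 11.3 CPM and was the only 1 of 7 heat shock genes called. Of 6 tested p53 genes 2 rose: Plk3, a stress-activated kinase, by 2.42 ± 0.4, and Aen, an apoptosis-linked nuclease, from 8.21 and 8.65 CPM to 18.5 and 19.2 CPM. The glucose transporter Slc2a1 rose by 0.98 ± 0.22, the only call among 10 hypoxia and glycolysis genes. Plk3 and Cebpb kept their calls without each library in turn, and the other 5 lost theirs in at least 1 of these fits (adjusted p up to 0.152). No apoptosis gene was called among 10 tested (median log2 fold change 0.13), nor any of 9 tested epithelial junction genes (median -0.12).

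In the prostanoid pathway 1 of 5 tested genes was called, against 7.87% of all genes tested. Ptgis, prostacyclin synthase, which makes the vasodilator prostaglandin I2, went from 6.66 and 5.84 CPM to 16.4 and 17.4 CPM (log2 fold change 1.44 ± 0.21, SE, edgeR adjusted p = 0.00389), and the call held without each library in turn. Slco2a1, the prostaglandin uptake transporter, was at 12.1 and 9.79 CPM in controls and 10.8 and 10.3 CPM after diclofenac. Rrad, a small GTPase, Olr1, a scavenger receptor for oxidised lipoprotein, and Sfrp1, a secreted Wnt inhibitor, were among other genes that rose, by 4.11 ± 0.77, 5.04 ± 0.66 and 1.55 ± 0.24 on the log2 scale. Rrad lost its call without either control (adjusted p = 0.121 and 0.0849). Ifit1, an interferon-induced gene, had no counts in controls and 9 and 38 after diclofenac, at least 11.2-fold higher, and was the only one called of 17 interferon genes, a share near that of all genes. Its call was lost without either control and without diclofenac replicate 2 (adjusted p up to 0.165).

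Several enzymes of alcohol, epoxide and drug metabolism fell. Of 51 genes in the drug and retinol list only 3 were tested. Of these 2, Adh7 and Cyp2c23, fell, against 3.11% of all genes tested. The list thus says little of drug metabolism as a whole. Ephx2 and Sult1b1, given below, are not in it. Adh7 (chromosome 2, 243502073 to 243516532 in the files), the class IV alcohol dehydrogenase of stomach epithelium that oxidises ethanol and retinol, was at 62.8 and 39.1 CPM in controls and at 10.4 and 7.74 CPM after diclofenac (log2 fold change -2.49 ± 0.28, SE, edgeR adjusted p = 0.00127). The call held without each library in turn. Ephx2, soluble epoxide hydrolase, fell from 15.9 and 15 CPM to 3.99 and 6.19 CPM, and its call held as well. Cyp2c23, an arachidonic acid epoxygenase, fell from 17 and 6.31 CPM to 2.65 and 3.71 CPM. Sult1b1, a sulfotransferase, fell from 33 and 14.3 CPM to 6.9 and 6.4 CPM. For both, control replicate 1 was more than 2-fold above control replicate 2, and their calls were lost without it and without either diclofenac library (adjusted p of these 5 genes up to 0.337). Blvrb, a biliverdin reductase, fell by 0.79 ± 0.22 on the log2 scale and lost its call in the same fits. It was the only call among 14 tested antioxidant genes, against 3.11% lower over all genes tested. Of the 14, 13 lay below 0 (median log2 fold change -0.59). Without control replicate 1 that median was -0.22, with 10 below 0.

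Nuclear genes of the mitochondrial respiratory chain lay mostly below 0, with few single calls. Of 37 tested genes 5 fell and none rose, and 35 lay below 0, with a median log2 fold change of -0.66. The lower share was 3.11% over all genes tested and 4.26% over the shortest of them (49 to 1308 nt of exon). Atp5if1, the inhibitor of ATP synthase, fell from 165 and 85.1 CPM to 48 and 51.5 CPM (log2 fold change -1.33 ± 0.32, SE, edgeR adjusted p = 0.0303). Sdhb, the iron-sulfur subunit of complex II, fell from 104 and 67.2 CPM to 42.4 and 45.1 CPM. The complex I genes Ndufa6, Ndufa13 and Ndufv3 fell by 0.94 ± 0.22, 0.86 ± 0.22 and 0.66 ± 0.18 on the log2 scale. The 2 genes above 0 were Cox6b2 and Ndufa4l2, neither of them called. None of the 5 calls held without control replicate 1 or without either diclofenac library (adjusted p up to 0.295), while the median of the list was -0.48 without control replicate 1 and -0.55 and -0.78 without the diclofenac libraries.

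Ribosomal protein genes shared this direction. Of 34 tested mitochondrial ribosomal protein genes 2 fell and 29 lay below 0 (median log2 fold change -0.48). Among all genes tested 3.11% were lower, and among those of 49 to 1308 nt 4.26%. Mrpl18 fell from 18.2 and 14.4 CPM to 6.17 and 8.21 CPM, and Mrpl40 from 11.7 and 7.98 CPM to 4.67 and 5 CPM. Neither call held without control replicate 1 or diclofenac replicate 1 (adjusted p up to 0.15), and the median of the list was -0.23 without control replicate 1. All 16 tested cytosolic ribosomal protein genes lay below 0 with no call (median -0.44, but -0.21 without diclofenac replicate 1 and -0.7 without diclofenac replicate 2). The 15 proteasome genes had a median of -0.15, which turned to 0.07 without control replicate 1, in a fit where the median of all named genes was 0.07 too.

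**Figure D3:**
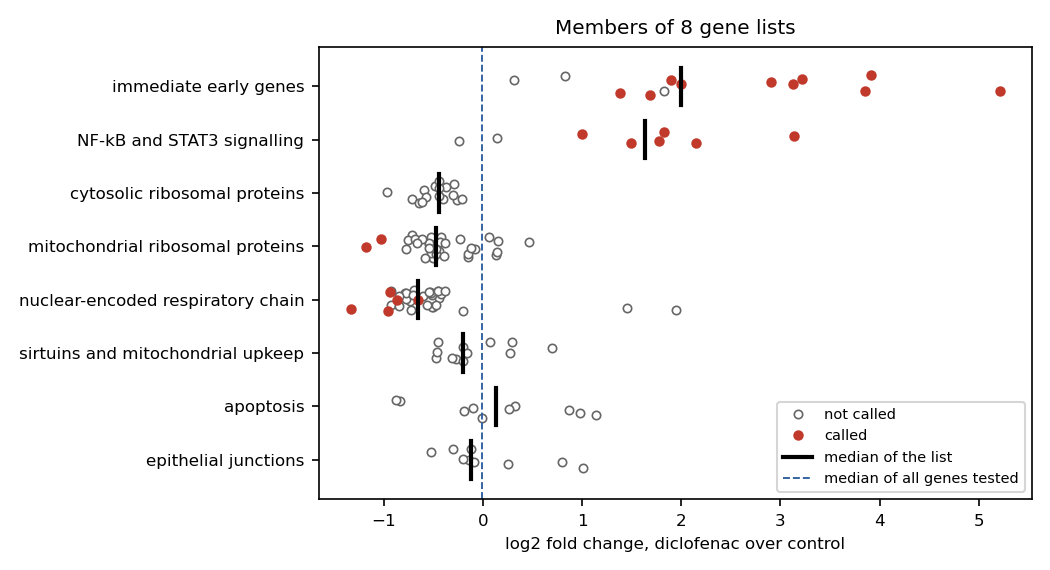
Log2 fold changes of the tested members of 8 gene lists, with filled symbols for called genes, a black bar at each list's median and a dashed line at the median of all genes tested (-0.01). Early genes centre at 1.99 and NF-kB and STAT3 genes at 1.64, whereas respiratory chain genes centre at -0.66 with 35 of 37 below 0.

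These lists consist of short transcripts, and calls went with transcript length. The median summed exon length was 711 nt in the respiratory chain list against 2171 nt over the genes tested. With the tested genes in 4 bins of length, in the shortest bin (49 to 1308 nt) 2.64% were higher and 4.26% lower, and in the longest bin (3458 to 29464 nt) 6.9% were higher and 1.66% lower. Replicates of 1 group differed along length as well: the median log2 ratio of control replicate 2 to control replicate 1 was -0.2 in the shortest bin and 0.22 in the longest. With the trend along length removed from the counts, the respiratory chain list had a median of -0.47, with 34 of 37 genes below 0 and 5 called lower. The mitochondrial ribosomal median was then -0.3 with 25 below 0, the cytosolic ribosomal median -0.31, and the proteasome median -0.02 with 8 of 15 below 0. The 14 antioxidant genes, with a median length of 1350 nt, then had a median of -0.45, with 11 below 0 and 2 called lower. Blvrb was not among those called (edgeR adjusted p = 0.0601).

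**Figure D4:**
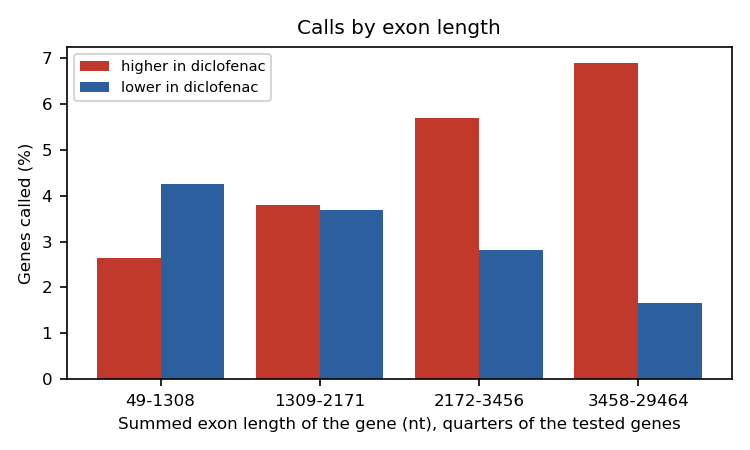
Share of tested genes called higher (red) or lower (blue) after diclofenac, in 4 bins of summed exon length. The higher share climbs from 2.64% in the shortest bin to 6.9% in the longest, and the lower share drops from 4.26% to 1.66%.

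Genes that govern mitochondrial upkeep were not called. Sirt3, the mitochondrial deacetylase, was at 5.18 and 6.11 CPM in controls and 4.11 and 4.98 CPM after diclofenac (log2 fold change -0.31 ± 0.22, SE, edgeR adjusted p = 0.385). None of the 12 tested genes of sirtuins, mitochondrial biogenesis, dynamics and repair passed, and their median was -0.2. Their log2 fold changes ran from -0.48 for Fis1, a fission factor, to 0.69 for Polrmt, the mitochondrial RNA polymerase, neither of them called.

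Of 12 tested fasting and glucocorticoid targets 1 was lower and 1 higher. Also lower were 1 of 12 lipid synthesis genes, 1 of 6 metal transport genes and 1 of 11 cell cycle genes. Over all genes tested, 3.11% were lower and 4.76% higher. Fabp3, a fatty acid binding protein, fell from 152 and 144 CPM to 72.7 and 64.5 CPM, and Cyp51, a sterol demethylase, from 104 and 66.3 CPM to 35.7 and 47.1 CPM. Tfrc, the transferrin receptor, fell from 80.9 and 79.4 CPM to 42.7 and 30.1 CPM. Ppard, a fatty acid sensing nuclear receptor, rose by 1.11 ± 0.26 on the log2 scale. Top2a, a topoisomerase of dividing cells, fell from 14.3 and 11.1 CPM to 5.54 and 2.95 CPM (log2 fold change -1.58 ± 0.37, SE, edgeR adjusted p = 0.0309). Cenpe, a mitotic kinesin, and Stmn1, which regulates microtubules, fell by 1.53 ± 0.38 and 1.18 ± 0.31. Neither is in the cell cycle list. Stmn1 is 1 of 2 tested isthmus and stem cell markers, and the other, Aqp5, lay above 0, uncalled. None of the calls of Fabp3, Cyp51, Tfrc, Top2a, Cenpe and Stmn1 held without control replicate 1 (adjusted p up to 0.307), nor without diclofenac replicate 2. Ppard lost its call in each of the 4 fits.

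Of genes that mark the surface epithelium, 1 fell. The summed level of 3 tested markers of surface mucous (pit) cells was 1305 and 948 CPM in controls against 402 and 491 CPM after diclofenac. Of the 3, 1 was called lower, against 3.11% of all genes tested. That gene, Mucl3, a mucin-like membrane protein, fell from 568 and 502 CPM to 186 and 140 CPM (log2 fold change -1.72 ± 0.3, SE, edgeR adjusted p = 0.00894). Ctse, which encodes cathepsin E, stood at 698 and 431 CPM in controls and 208 and 340 CPM after diclofenac (edgeR adjusted p = 0.083). The 4 parietal cell markers summed to 2529 and 3366 CPM in controls and 2920 and 2561 CPM after diclofenac, and overlapped. Lgals2, a galectin, Ms4a8, a tetraspan membrane protein, Ppp1r3c, a glycogen-targeting phosphatase subunit, and Mycbpap fell by 1.61 ± 0.25, 1.87 ± 0.48, 1.4 ± 0.29 and 1.41 ± 0.21 (log2, SE). Without control replicate 1 the calls of Mucl3, Lgals2 and Mycbpap held, and without diclofenac replicate 2 those of Lgals2 and Mycbpap.

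Diclofenac was then set beside the other NSAIDs of the series. Indomethacin is also an arylacetic acid and aspirin is an acetylated salicylate, and the doses differed (75, 48 and 400 mg/kg), so these values show the groups as dosed and not the drugs at a matched dose. The drugs have the same control libraries, so comparisons of each with control would not be independent. Fitted directly, 3 of 16346 genes differed between diclofenac and indomethacin (edgeR, 0.0184%, with 1949 genes at an unadjusted p under 0.05). DESeq2 called 164. The 3 edgeR calls, that of Adh7 included, were lost when diclofenac replicate 1 was left out. None differed between diclofenac and aspirin (edgeR, with 852 genes at an unadjusted p under 0.05, and 7 called by DESeq2). Adh7 was at 60 and 50 CPM after indomethacin and at 12.6 and 8.85 CPM after aspirin. The difference of diclofenac from indomethacin was -2.6 ± 0.28 (SE) in log2 units (edgeR adjusted p = 0.0103), and from aspirin -0.23 with a 95% interval of -0.83 to 0.37. The indomethacin libraries thus lay at the control level for this gene, and the aspirin libraries at the diclofenac level.

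Slc9a3 did not pass against indomethacin. It was at 115 and 98.8 CPM after indomethacin and 192 and 253 CPM after aspirin, against 408 and 295 CPM after diclofenac. Its difference from indomethacin was 1.72 (95% interval 1.14 to 2.29, edgeR adjusted p = 0.0631). For Cxcr2 the difference from indomethacin was 2.11 (0.95 to 3.27, adjusted p = 0.23), and for Mucl3 it was -1.24 (-1.89 to -0.59, adjusted p = 0.217). For the early gene Egr1 no difference was detectable: 0.35 ± 0.44 (SE) from indomethacin and 0.34 ± 0.44 from aspirin. Fosb differed by -0.49 (-1.12 to 0.14) and 0.5 (-0.15 to 1.15), again without passing. The intervals are for single genes and are not adjusted over all genes tested. Those of Slc9a3, Cxcr2 and Mucl3 from indomethacin did not span equality, while both of Fosb did. A difference that did not pass does not show that the drugs act alike.

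**Figure D5:**
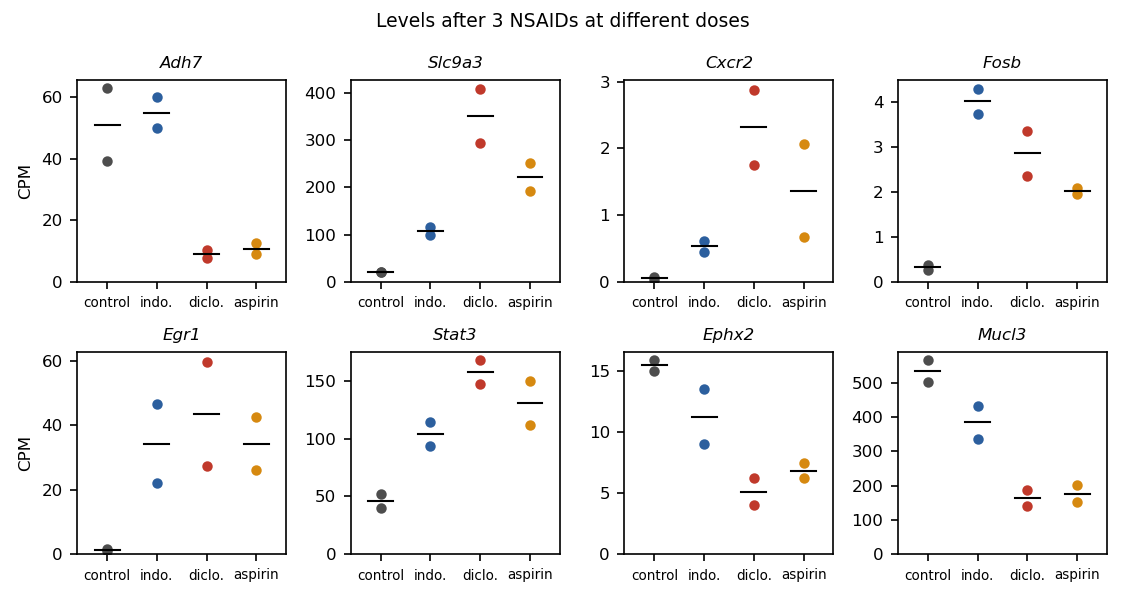
CPM of 8 genes in the control, indomethacin (48 mg/kg), diclofenac (75 mg/kg) and aspirin (400 mg/kg) libraries, 2 points a group with a bar at their mean. Adh7 stays at 60 and 50 CPM after indomethacin but is near 10 CPM after diclofenac and aspirin, and Slc9a3 is highest after diclofenac.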

How the data were processed

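The authors deposited raw read counts, as whole numbers, with a header like that of featureCounts. The aligner HISAT2 2.1.0, the trimmer cutadapt 1.16 and the counter featureCounts, besides bcl2fastq, FastQC, SAMtools and DESeq2, are in the submitters' processing notes. Per the labels' protocols, libraries were stranded and depleted of ribosomal RNA. The genome build and the strand setting of the counter are not stated in these sources, so overlapping and antisense genes cannot be told apart. 

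Counts were tested with edgeR 4.0.16 (R 4.3.3): TMM factors, filterByExpr (minimum count 10, total 15), robust quasi-likelihood F test, group as the only term, all 10 libraries in 1 fit with 5 residual degrees of freedom, Benjamini-Hochberg adjustment over all genes tested. CPM use the same factors. The SE is the fold change over the square root of F. The fit was also run on simulated counts, drawn independently for each gene with the fitted spread. These held none of the library differences given above (Y reads, length trend, loci), so that run does not bear on them. DESeq2 1.42.0 was an alternative.

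None of the 32623 identifiers is in the reference gene table (RefSeq, GRCr8). Names were therefore inferred: a protein-coding gene of at least 1000 nt on the same chromosome, with a span within 5%, and at least 3 other such pairs within 300 kb at the same distance within 2 kb. This gave 4802 pairs, of which 4 had the wrong strand and were dropped. With reference spans deliberately lengthened the rule gave 25 pairs. It was the last of many settings tried over 3 versions of the rule, chosen mainly on strand fit and on that control, but after expression values of genes named by earlier versions, and the number of listed genes named, had been seen. The choice of names was thus not blind to the results. The members, gene lists, markers and naming rule for the text were chosen with earlier results of these data known.

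The text names key genes, up to 4 called genes with the largest change for each role of a list, otherwise the most abundant member, the 12 largest rises and 12 largest falls among calls whose mean log2 CPM reached 1, and genes called between drugs. Of the most abundant uncalled members, only some are named, and some genes that met the rule are not reported here. Same-numbered control and diclofenac libraries correlated at r = -0.134 in their deviations from the group means. Over the 10 pairs of groups r ran from -0.263 to 0.298, and the labels tie no numbers together, so the numbers were not taken to pair samples. Replicates correlated across genes at r = 0.963 (control) and 0.967 (diclofenac) and differed by far more than sampling noise.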

Additional observations from a re-analysis of the deposited data

Results flagged for a closer look

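Each of the following differed between 2 drug groups by a direct test of the difference (edgeR adjusted p under 0.05 over 16346 genes), at doses that were not matched. Adh7 was lower after diclofenac than after indomethacin by a log2 difference of -2.6 ± 0.28 (SE). On chromosome 3, an unnamed feature of 1 exon (75024206 to 75024479, 274 nt), chosen after its values were seen, had a difference of -2.78 ± 0.25: it stood at 16.1 and 13 CPM in controls, 13.7 and 10 CPM after indomethacin, 1.72 and 1.71 CPM after diclofenac and 2.39 and 1.8 CPM after aspirin. A 24-exon gene on chromosome 7 (14529482 to 14574361), also chosen after its values were seen, had a difference of -4.69 ± 0.59, with 6.11 and 4.29 CPM after indomethacin against 0.159 and 0.238 CPM after diclofenac and 0.379 and 0.234 CPM in controls. None of these 3 differences passed the test when diclofenac replicate 1 was left out, a fit in which edgeR called 0 genes and 988 had an unadjusted p under 0.05. Without diclofenac replicate 2 all 3 were called, among 63 genes.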

How the results depend on the processing

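The numbers of genes higher and lower, 778 and 508, became 1656 and 994 without a low-count filter, 424 and 103 with only the 4 libraries compared, 280 and 103 with a term for Y reads, 256 and 51 against a 1.5-fold change, and 136 and 14 with only libraries without Y reads (added after the data were seen). Leaving out 1 library in turn gave 241 to 825 higher and 73 to 636 lower genes. The lower count moved by over 1.5 times without control replicate 1 (78), indomethacin replicates 1 and 2 (267 and 325), honokiol plus indomethacin replicates 1 and 2 (304 and 274), or diclofenac replicates 1 and 2 (81 and 73). With the replicate number as a block there were 638 and 297, and with the diclofenac numbers crossed 749 and 434. DESeq2 called 1049 and 727. Against indomethacin, 3 genes became 872 without the filter and 164 with DESeq2, and 0 to 63 when 1 library was left out. Against aspirin, 0 became 140 without the filter, 7 with DESeq2 and 0 to 27 when 1 library was left out. The cause was not tested. Of the 326 called genes with a symbol, 75 higher and 22 lower ones stayed called with the Y term, 170 and 60 with the block, and none changed sign in any alternative. Signs of uncalled genes were checked one by one only for those picked by the naming rule. Others turned too: of 15 proteasome genes 3 lay above 0 in the main fit and 11 without control replicate 1. Among the uncalled genes checked, signs turned for 13, given with the log2 fold change as reported first. These were Aldh3a1 (-1.24: 0.070 without Y-read libraries, -1.88 to 0.072 leaving out 1 library), Alox15 (0.46: -0.39 to 1.83 leaving out 1 library), Areg (0.14: -0.63 to 1.53 leaving out 1 library), Calr (-0.16: 0.068 with the Y term, 0.39 without Y-read libraries, -0.51 to 0.39 leaving out 1 library), Ctnna1 (-0.12: -0.26 to 0.038 leaving out 1 library). Others were Ctsb (-0.13: 0.18 without Y-read libraries, -0.35 to 0.18 leaving out 1 library), Hsd11b2 (0.50: -0.40 to 1.45 leaving out 1 library), Irf7 (-0.033: 0.0009 without the filter, 0.014 with 4 libraries, 0.41 with the Y term, 0.098 with the replicate block, 0.026 with the length trend removed, 0.24 without Y-read libraries, -1.33 to 0.67 leaving out 1 library), Keap1 (-0.034: 0.0 without the filter, 0.0017 with 4 libraries, -0.10 to 0.099 leaving out 1 library), Krt8 (-0.59: 0.060 without Y-read libraries, -0.99 to 0.062 leaving out 1 library). The rest were Per3 (0.44: -0.076 without Y-read libraries, -0.075 to 1.346 leaving out 1 library), Psmd2 (-0.11: 0.0056 without Y-read libraries, -0.16 to 0.0074 leaving out 1 library), Slco2a1 (-0.050: 0.14 without Y-read libraries, -0.17 to 0.15 leaving out 1 library). With 2 libraries a group, single libraries decide many calls, and genes with few control counts have wide errors.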

Other observations

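A set of 25 named genes was called in all 21 alternatives other than dropping the low-count filter and testing against a 1.5-fold change and all but Adh7 rose. Several are outside the gene lists and were chosen after their values were seen. Epha2, an ephrin receptor kinase of epithelial cells, went from 3.13 and 2.17 CPM to 12.5 and 17 CPM. Procr, the endothelial protein C receptor, went from 1.29 and 0.768 CPM to 11.1 and 17.4 CPM. Zyx, which encodes the focal adhesion protein zyxin, went from 5.27 and 5.64 CPM to 17.4 and 24.1 CPM. Dot1l, the histone H3 lysine 79 methyltransferase, went from 2.59 and 3.64 CPM to 22 and 19.5 CPM. Their highest adjusted p over these alternatives was 0.0129, 0.0394, 0.0346 and 0.0187.

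A few genes of fatty acid oxidation that were in no list fell. Slc25a20, the mitochondrial carnitine carrier, fell from 37.5 and 32.2 CPM to 13.7 and 15.2 CPM (log2 fold change -1.27 ± 0.21, SE, edgeR adjusted p = 0.00576). Etfdh, which passes electrons from fatty acid oxidation to ubiquinone, fell from 60.5 and 59.3 CPM to 28.9 and 28.9 CPM. Echs1, the mitochondrial enoyl-CoA hydratase, fell from 107 and 98.5 CPM to 48 and 54 CPM. These 3 genes were picked after their values were seen and stand for no group. The fixed list of fasting and fatty acid genes had 1 lower and 1 higher of 11. Etfdh and Echs1 lost their calls without control replicate 1 and without either diclofenac library (adjusted p 0.0714 to 0.145). Gfap, a marker of glia, went from 0.19 and 0.134 CPM to 0.907 and 1.95 CPM, and Slc18a2, the vesicular monoamine transporter of endocrine cells, from 55.5 and 75 CPM to 116 and 150 CPM. Gfap lost its call without either control and without diclofenac replicate 2, and Slc18a2 kept its call only where control replicate 2 was left out.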
